A study of Homo sapiens with 6 samples.

Results

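Cytochrome P450 (CYP) and UDP-glucuronosyltransferase (UGT) genes were examined by RNAseq in cabazitaxel (CBZ) sensitive and resistant prostate cancer cells. The genes were taken by name: every protein-coding gene of the count table whose symbol is CYP or UGT followed by a family number, a subfamily letter and a gene number. This gave 76 genes, 55 CYP and 21 UGT, of 19951 protein-coding genes and 58735 genes in all. Genes outside this naming scheme, such as UGT8, were not included.

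CYP enzymes are heme proteins that insert oxygen into drugs, steroids, sterols, fatty acids, vitamins and retinoids, with electrons supplied by POR in the endoplasmic reticulum or by FDXR and FDX1 in mitochondria. UGT enzymes attach glucuronic acid from UDP-glucuronate to a hydroxyl or other group, which makes the product water soluble. Liver carries most of the drug oxidation in the body, where CYP3A4 and CYP3A5 are the main enzymes that oxidize CBZ and docetaxel, and CYP2C8 oxidizes paclitaxel and, to a lesser extent, CBZ. In prostate cells UGT2B15 and UGT2B17 are known for conjugating dihydrotestosterone and its metabolites, which inactivates these hormones.

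The series compared C4-2B, an established human castration resistant prostate cancer cell line, with RC4-2B, the CBZ-resistant subclone derived from it, with 3 biological replicates of each. RC4-2B came from a single selection in which C4-2B cells were treated with CBZ in cycles of 72 h, at concentrations from 0.1 to 20 nM over 4 months, with recovery between cycles, so cell line and selection history cannot be told apart. The labels give RPMI-1640 with 10% fetal bovine serum for both cell lines, while the study's methods for RNAseq name both this serum and charcoal-stripped serum at 10%, and no drug is named for the cells that were sequenced. Libraries held 15707134 to 18052517 counts on genes, which places 3 counts at 0.170 to 0.188 CPM (counts scaled to library size, with TMM factors between libraries). ABCB1, the drug efflux pump gene upregulated in RC4-2B, had 0, 1 and 0 counts in the C4-2B libraries and 10742, 15948 and 13179 counts in the RC4-2B libraries. RC4-2B replicate 2 stood apart: the SD over genes of its log2 difference from replicates 1 and 3 was 0.594 and 0.518, against 0.216 between replicates 1 and 3 and 0.133 to 0.192 among the C4-2B libraries. The log2 difference also followed the GC content of transcripts, with a Spearman correlation of 0.757 for RC4-2B replicate 1 over 2 and -0.690 for 2 over 3. It was 0.402 for replicate 1 over 3, and 0.0584 to 0.323 among the C4-2B libraries. Values without RC4-2B replicate 2 are given beside the results that it moved most. Luminal prostate markers were present, with 10 of 10 above 3 counts and a summed level of 4546 to 4671 CPM in C4-2B against 3450 to 4010 CPM in RC4-2B. Of 8 hepatocyte markers, 3 were above 3 counts, with a summed level of 14.6 to 18.5 CPM in C4-2B against 16.7 to 26.2 CPM in RC4-2B, and APOA2, APOB, FGB, SERPINA1 and TAT were at or under 3 counts in every library. In bulk RNA, fewer cells that express a gene and less RNA per cell cannot be told apart.

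The sequence before the transcription start is shown for CYP3A4 and CYP3A5, the taxane oxidizing genes that were nearly silent here, with the letters of a known drug-response element in capitals. They are 250 bases upstream of the RefSeq start in GRCh38.p14, on the minus strand of chromosome 7, at chr7:99784185-99784434 for CYP3A4 and chr7:99679997-99680246 for CYP3A5. The capitals mark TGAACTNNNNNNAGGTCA, an everted repeat of the kind bound by the xenobiotic receptor PXR (gene NR1I2), searched on both strands.
CYP3A4: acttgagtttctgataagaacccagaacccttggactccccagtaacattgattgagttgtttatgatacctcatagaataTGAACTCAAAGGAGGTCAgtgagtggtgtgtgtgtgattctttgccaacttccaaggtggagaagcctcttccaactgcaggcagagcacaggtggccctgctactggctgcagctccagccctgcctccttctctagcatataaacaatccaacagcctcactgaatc
CYP3A5: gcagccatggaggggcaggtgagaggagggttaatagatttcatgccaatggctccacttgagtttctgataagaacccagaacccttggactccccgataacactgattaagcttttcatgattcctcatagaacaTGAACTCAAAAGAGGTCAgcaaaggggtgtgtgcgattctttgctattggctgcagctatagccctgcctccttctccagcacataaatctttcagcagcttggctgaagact
The match ends 151 bases before the start of CYP3A4 and 95 bases before that of CYP3A5. Of 35116 promoters of the same length in the RefSeq table, 3 (0.00854%) held it, and 56 of the 76 genes had an entry in that table. NR1I2 itself had 0 counts in all 6 libraries.

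Upstream sequences are also shown for UGT2B15, UGT2B11 and UGT2B10, the tested UGT2B genes with such an entry. Within C4-2B their counts were highest in replicate 3, as described below. They are 250 bases before the RefSeq start in GRCh38.p14 at chr4:68670653-68670902 (minus strand), chr4:69214749-69214998 (minus strand) and chr4:68815744-68815993 (plus strand). The capitals mark TTTTAACTTGATTGATTT, the longest run of letters that the 3 sequences share.
UGT2B15: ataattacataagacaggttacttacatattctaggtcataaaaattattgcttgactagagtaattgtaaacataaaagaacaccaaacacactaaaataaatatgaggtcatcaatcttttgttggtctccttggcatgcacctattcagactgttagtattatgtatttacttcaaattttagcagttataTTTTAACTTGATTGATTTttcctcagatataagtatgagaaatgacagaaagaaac
UGT2B11: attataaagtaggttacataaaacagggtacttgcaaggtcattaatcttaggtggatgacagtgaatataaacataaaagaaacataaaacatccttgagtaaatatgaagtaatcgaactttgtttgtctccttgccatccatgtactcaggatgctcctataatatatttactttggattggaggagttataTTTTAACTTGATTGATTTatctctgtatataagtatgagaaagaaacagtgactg
UGT2B10: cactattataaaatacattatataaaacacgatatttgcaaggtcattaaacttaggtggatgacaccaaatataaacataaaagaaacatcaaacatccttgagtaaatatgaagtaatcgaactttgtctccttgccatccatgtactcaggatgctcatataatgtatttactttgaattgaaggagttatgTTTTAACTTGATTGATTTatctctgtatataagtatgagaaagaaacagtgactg
The run ends 38, 37 and 37 bases before the start of UGT2B15, UGT2B11 and UGT2B10. It was found in 3 of 35116 promoters (0.00854%), which are these. As the run was taken from these related genes, its presence in them was fixed in advance, and its rarity is no support for a shared element. The forkhead-type motif TATTTAC, searched on both strands, occurred in UGT2B15, UGT2B11, UGT2B10 and UGT2A2 among the 56 genes and in 2.39% of all promoters. A match of letters is a description of the sequence and not of binding.

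To see how much of the gene family was expressed, raw counts were examined first. Many of the 76 genes had few or no counts: 19 had 0 counts in all 6 libraries, another 17 had at most 3 counts in any library, and 40 exceeded 3 counts in at least 1 library. An FPKM of 1 (fragments scaled by gene length and library size) in at least 3 libraries was reached by 13 of 76 (17.1%), against 10205 of 19951 protein-coding genes (51.2%). After the filter on low counts, 24 genes remained for the test, 19 CYP and 5 UGT, and the other 52 are described by their counts.

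On the FPKM scale, which divides by gene length and so allows levels of different genes to be compared, the highest levels in C4-2B were those of UGT2B15 (5.81 ± 3.62, SD, n = 3) and CYP51A1 (5.60 ± 0.44). CYP20A1 (4.22 ± 0.37), CYP2R1 (3.85 ± 0.31), CYP4V2 (3.12 ± 0.13) and CYP27B1 (2.82 ± 0.08) followed. UGT2B15 was also the highest in RC4-2B at 10.1 ± 3.88 FPKM, followed by CYP20A1 (4.01 ± 0.27), CYP2R1 (3.94 ± 0.71), CYP4V2 (3.33 ± 0.87) and CYP11A1 (3.29 ± 0.79). The place of UGT2B15 in C4-2B rested on replicate 3, at 9.99 FPKM, while replicates 1 and 2 were at 3.55 and 3.89 with a mean of 3.72, below CYP51A1, CYP20A1 and CYP2R1. In C4-2B, UGT2B15 did not differ from CYP51A1 beyond the spread of its libraries. The ranges of CYP20A1 and CYP2R1 overlapped, though CYP20A1 was the higher in each C4-2B library (4.39 against 4.18, 3.80 against 3.59 and 4.49 against 3.78 FPKM). This order was not tested. None of these abundant CYP genes encodes a main drug-oxidizing enzyme of liver. CYP2R1 and CYP27B1 hydroxylate vitamin D, CYP51A1 demethylates lanosterol in cholesterol synthesis, CYP11A1 cleaves the side chain of cholesterol, CYP4V2 hydroxylates fatty acids and CYP20A1 has no settled substrate.

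**Figure D1:**
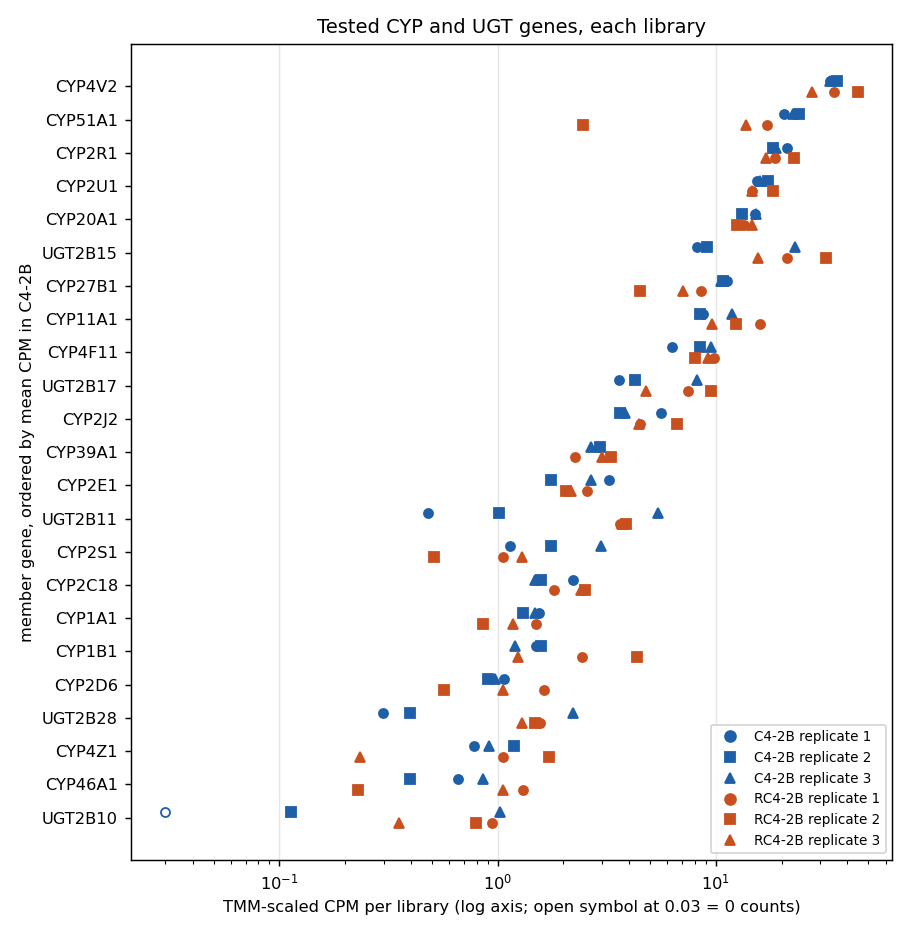
TMM-scaled CPM (log axis) of 23 of the 24 CYP and UGT genes that passed the count filter, with 1 symbol per library, C4-2B in blue and RC4-2B in orange. Levels run from CYP4V2 at the top to UGT2B10 at the bottom, and the RC4-2B symbols lie wholly below the C4-2B symbols only for CYP51A1 and CYP27B1 among these genes.

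RC4-2B was compared with C4-2B in 1 fit over 15054 genes with the quasi-likelihood test of edgeR, and p-values were adjusted over all of them (Benjamini-Hochberg, threshold 0.05). None of the 24 tested genes passed: 0 were higher and 0 were lower in RC4-2B, in a comparison in which 1.98% of all tested genes passed (1.08% higher, 0.903% lower). At an unadjusted p under 0.05 the fit held 1 of the 24, CYP27B1, against 21.4% of all tested genes. DESeq2, run as an alternative, called 0 of the CYP and UGT genes and 5.93% of all genes. The median log2 fold change of the 24 was 0.10, beside 0.01 over all tested genes, with 16 fitted above 0 and 8 below. Single values ranged from -1.03 for CYP2S1 to 0.91 for CYP1B1. For 11 of the 24, the 95% interval lay within a 2-fold change in either direction. For the others a 2-fold change could be neither shown nor set aside, and for 7 of these the interval spanned more than 2 log2 units.

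**Figure D2:**
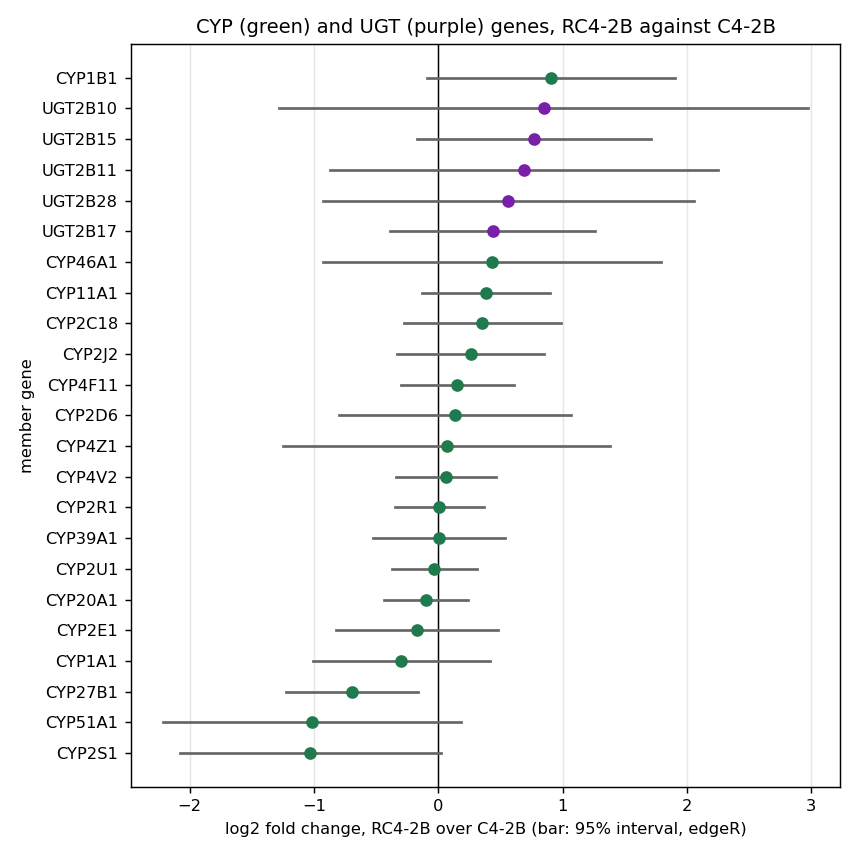
Log2 fold change of RC4-2B over C4-2B from edgeR for 23 of the 24 tested genes, with 95% intervals as bars, CYP genes in green and UGT genes in purple. The UGT2B genes all sit right of 0 with intervals that cross it, and the interval of CYP27B1 is the one that lies wholly below 0.

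Taxane oxidation was examined because CBZ is a substrate of CYP3A enzymes. CYP3A4, at chr7:99756960-99784265 on the minus strand, had 0, 0 and 0 counts in C4-2B against 1, 0 and 0 in RC4-2B. CYP2C8, at chr10:95036772-95069497, and CYP3A7, the fetal form, had 0 counts in all 6 libraries. CYP3A43, a minor member of the family, had 2, 3 and 1 counts in C4-2B compared with 1, 1 and 0 in RC4-2B. All of these lie at or under 3 counts in every library, so any level up to 0.188 CPM would escape detection and no fold is given.

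CYP3A5, at chr7:99648194-99680026, was the CYP3A gene with the most counts. It had 4, 4 and 5 counts in C4-2B against 24, 11 and 6 in RC4-2B, so every RC4-2B library lay above every C4-2B library, the lowest by 1 count. The mean was 0.250 ± 0.031 CPM in C4-2B against 0.827 ± 0.600 CPM in RC4-2B (n = 3 each), a ratio of 3.31, with an exact two-sided permutation p of 0.1, which is the smallest that 3 against 3 libraries can give. Without RC4-2B replicate 1 the RC4-2B mean was 0.490 CPM and the ratio 1.96. CYP3A5 was removed by the count filter. Without that filter edgeR gave a log2 fold change of 1.68 ± 0.61 (SE) with an adjusted p of 0.112, and DESeq2 gave 1.71 with an adjusted p of 0.201. In FPKM the RC4-2B level was 0.111 ± 0.079, about the level of genes such as CYP2C19 (0.096 ± 0.094 FPKM in RC4-2B) that rest on a few reads. The CYP3A genes lie 11.9 to 12.1 Mb from ABCB1 on chromosome 7.

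CYP1B1, which oxidizes polycyclic aromatic carcinogens and oestrogens, had 25, 28 and 21 counts in C4-2B compared with 39, 76 and 21 in RC4-2B. RC4-2B replicates 1 and 2 exceeded all C4-2B libraries and replicate 3 did not. The fitted log2 fold change was 0.91 ± 0.44 (SE, 95% interval -0.09 to 1.90, adjusted p = 0.262 in edgeR), and it was 0.36 without RC4-2B replicate 2 (adjusted p = 0.563).

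The remaining genes of drug and carcinogen oxidation had low or overlapping counts. Of the 17 genes of this class, 8 had at most 3 counts in every library, and 6 were tested. CYP2C18, another CYP2C gene, had 37, 28 and 26 counts in C4-2B compared with 29, 44 and 41 in RC4-2B, with a log2 fold change of 0.36 ± 0.28 (SE, adjusted p = 0.446 in edgeR). CYP1A1, the classical target of the aryl hydrocarbon receptor, had 26, 23 and 26 counts in C4-2B against 24, 15 and 20 in RC4-2B. CYP2C19 was not tested, at 2, 2 and 3 counts in C4-2B compared with 3, 15 and 3 in RC4-2B, where replicate 2 alone exceeded 3 counts.

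**Figure D3:**
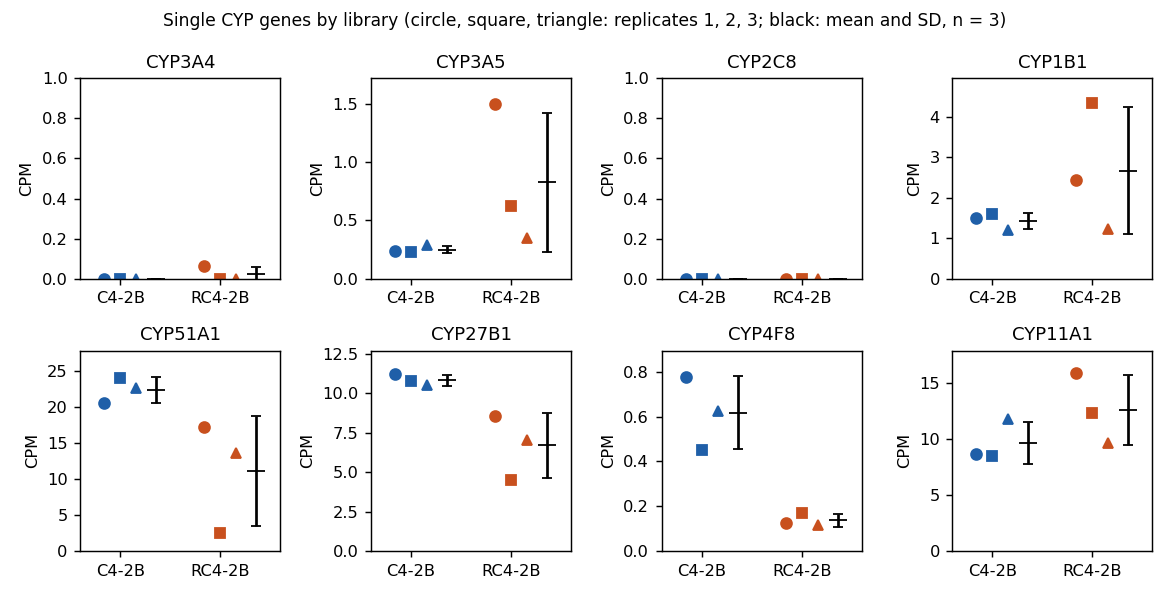
TMM-scaled CPM of 8 CYP genes in each library, with replicates 1, 2 and 3 as circle, square and triangle and the mean with SD (n = 3) in black beside each cell line. CYP3A4 and CYP2C8 sit at or near 0, CYP3A5 stays under 2 CPM in every library, and RC4-2B replicate 2 (square) is the lowest point for CYP51A1 and CYP27B1.

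For androgen glucuronidation, UGT2B15 and UGT2B17 had the highest mRNA levels of the UGT2B cluster on chromosome 4. UGT2B15, at chr4:68646630-68670628 on the minus strand, had 138, 160 and 404 counts in C4-2B against 340, 559 and 265 in RC4-2B. C4-2B replicate 3 thus lay within the range of RC4-2B, while C4-2B replicates 1 and 2 lay below all RC4-2B libraries. The mean was 13.4 ± 8.30 CPM in C4-2B against 22.9 ± 8.27 CPM in RC4-2B, and the log2 fold change was 0.77 ± 0.41 (SE, 95% interval -0.18 to 1.71, adjusted p = 0.300 in edgeR).

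UGT2B17, at chr4:68537184-68568527 on the minus strand, had 60, 75 and 144 counts in C4-2B compared with 119, 167 and 81 in RC4-2B, in the same order of libraries as UGT2B15. Its log2 fold change was 0.44 ± 0.36 (SE, 95% interval -0.38 to 1.26, adjusted p = 0.470 in edgeR). UGT2B15 and UGT2B17 together made up 91.2%, 88.7% and 76.6% of all UGT2B counts in the C4-2B libraries and 81.0%, 85.1% and 77.9% in the RC4-2B libraries.

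The same library stood out for their neighbours. UGT2B11, whose substrates are less well defined, had 8, 18 and 95 counts in C4-2B against 58, 68 and 63 in RC4-2B. UGT2B28, which also conjugates androgens, had 5, 7 and 39 counts in C4-2B compared with 25, 26 and 22 in RC4-2B. For both genes the RC4-2B libraries were nearly level while the highest and the lowest library of the 6 were both C4-2B. UGT2B10, known for nicotine and amine glucuronidation, had 0, 2 and 18 counts in C4-2B against 15, 14 and 6 in RC4-2B. UGT2B4, which conjugates bile acids, had 5, 3 and 12 counts in C4-2B compared with 8, 15 and 6 in RC4-2B. UGT2B7, an enzyme of morphine and steroid glucuronidation, had 1, 0 and 3 counts in C4-2B against 2, 4 and 1 in RC4-2B. In all 7 genes the highest C4-2B count was that of replicate 3.

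**Figure D4:**
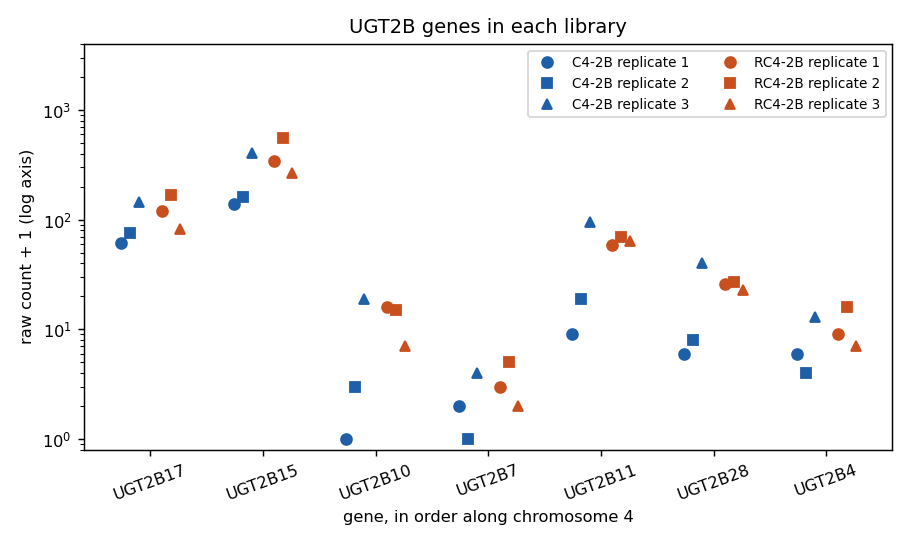
Raw counts plus 1 (log axis) of the 7 UGT2B genes in each library, in their order along chromosome 4, with C4-2B in blue and RC4-2B in orange. C4-2B replicate 3 (blue triangle) lies above C4-2B replicates 1 and 2 for every gene and above all RC4-2B libraries for UGT2B10, UGT2B11 and UGT2B28.

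In C4-2B replicate 3, TMM-scaled CPM was 7.23 times the mean of replicates 1 and 2 for UGT2B11, 6.39 times for UGT2B28, 2.92 times for UGT2B4, 2.66 times for UGT2B15 and 2.09 times for UGT2B17. The summed UGT2B level was 12.9, 15.0 and 40.7 CPM in C4-2B against 35.5, 48.6 and 26.1 CPM in RC4-2B. The SD of log2 CPM of UGT2B15 over the C4-2B libraries was 0.81, beside a median of 0.11 over 3831 genes of like level. This pattern was noticed in the data, and these values are descriptions.

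The comparison of the cell lines for UGT2B genes therefore depended on single libraries. All 5 tested UGT2B genes were fitted above 0, with a median log2 fold change of 0.69 and a range of 0.44 to 0.85, and none passed the threshold. Within C4-2B all 5 were highest in replicate 3, and they lie in 1 cluster and share sequence, so they are not 5 independent observations. Within RC4-2B they did not move together: UGT2B15 and UGT2B17 varied between libraries while UGT2B11 and UGT2B28 were nearly level. With all libraries in the fit, the log2 fold change of UGT2B11 was 0.69 ± 0.68 (SE, adjusted p = 0.545 in edgeR). That of UGT2B28 was 0.56 ± 0.65 (SE, adjusted p = 0.609 in edgeR). Without C4-2B replicate 3 the log2 fold change was 1.40 for UGT2B15 (adjusted p = 0.152), 0.88 for UGT2B17 (adjusted p = 0.318), 2.30 for UGT2B11 (adjusted p = 0.0771) and 2.03 for UGT2B28 (adjusted p = 0.139), all in edgeR. Without RC4-2B replicate 2 it was 0.45 for UGT2B15, 0.18 for UGT2B17, 0.66 for UGT2B11 and 0.54 for UGT2B28. Leaving out C4-2B replicate 1 also lowered the values, to 0.51 for UGT2B15, 0.22 for UGT2B17, 0.22 for UGT2B11 and 0.14 for UGT2B28. Without C4-2B replicate 2 they were 0.55, 0.29, 0.34 and 0.19 in the same order of genes. After correction for GC content the value of UGT2B15 was 0.56 (adjusted p = 0.326 in edgeR).

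UGT2B15 and UGT2B17 are known to be repressed by androgen in prostate cells, so androgen readouts of the same libraries are given beside them. KLK3, which encodes prostate specific antigen, fell from 1026, 980 and 916 CPM in C4-2B to 54.7, 31.5 and 59.1 CPM in RC4-2B (log2 fold change -4.33 ± 0.24 SE, adjusted p = 0.000154 in edgeR). TMPRSS2, the other readout, fell less, from 185, 172 and 195 CPM in C4-2B to 95.9, 65.9 and 99.8 CPM in RC4-2B. Its log2 fold change was -1.08 ± 0.16 (SE, adjusted p = 0.0190 in edgeR). In C4-2B replicate 3, the C4-2B library with the most UGT2B15 counts, KLK3 was the lowest of the C4-2B libraries (916 CPM). TMPRSS2 was the highest of them there (195 CPM). The part of androgen signalling in the UGT2B values was not tested.

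Reads of the UGT2B genes are also partly interchangeable. Of the 50-base stretches of the longest transcript, 27.1% in UGT2B15 and 23.3% in UGT2B17 occur in another gene, mostly in each other, as do 40.5% in UGT2B11 and 35.2% in UGT2B28. How the authors counted reads that map to several genes is not given in the sources used here, so the split between these genes is uncertain.

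UGT1A, UGT2A and UGT3A genes gave almost no counts. The UGT1A enzymes, which share their last exons at a single locus on chromosome 2 and conjugate bilirubin and many drugs, summed to 7, 3 and 4 counts in C4-2B compared with 0, 7 and 4 in RC4-2B over 9 genes. UGT1A1, the bilirubin enzyme, had 1, 0 and 1 counts in C4-2B against 0, 4 and 1 in RC4-2B. UGT2A1, UGT2A2 and UGT2A3, known from olfactory and gut epithelium, had 0 counts in every library. UGT3A1, which uses another sugar than glucuronic acid, had 2, 3 and 4 counts in C4-2B compared with 7, 4 and 6 in RC4-2B. None of these 14 genes was tested. In the UGT1A genes found in GENCODE release 44, 40.3% (UGT1A7) to 70.6% (UGT1A10) of exonic bases lie in other genes' exons on the same strand. The share was 62.6% in UGT2A1 and 95.6% in UGT2A2. How reads of such shared exons were counted is not given, so low counts of these genes do not show that they are silent.

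Sterol and steroid synthesis was represented by CYP51A1 and CYP11A1. CYP51A1, at chr7:92112151-92134803 on the minus strand and 4.40 Mb from ABCB1, had 344, 426 and 397 counts in C4-2B against 275, 43 and 233 in RC4-2B. All RC4-2B libraries lay below all C4-2B libraries, and RC4-2B replicate 2 lay far below the other RC4-2B libraries. The mean was 22.4 ± 1.81 CPM in C4-2B against 11.1 ± 7.70 CPM in RC4-2B, and the log2 fold change was -1.02 ± 0.52 (SE, 95% interval -2.21 to 0.18, adjusted p = 0.286 in edgeR). Without RC4-2B replicate 2 the change was smaller and passed the threshold, at -0.54 ± 0.13 (SE, adjusted p = 0.0155 in edgeR), in a fit that called 6.02% of all tested genes lower. DESeq2 without that library, a fit added after the data were seen, gave -0.54 (adjusted p = 0.0137) and called 6.08% of all genes lower. Without the count filter edgeR gave -1.02 with an adjusted p of 0.0286, and 2.22% of all genes were lower.

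CYP51A1 shares 68.2% of its exonic bases, on the same strand, with exons of other genes in GENCODE release 44. Chief among these genes is a read-through gene that had 0 counts in all libraries. How reads of shared exons were counted is not given, so the counts of CYP51A1 are uncertain. CYP51A1 is a known target of SREBF2, the transcription factor of cholesterol synthesis. SREBF2 had a log2 fold change of -0.34 (adjusted p = 0.158 in edgeR), and -0.24 without RC4-2B replicate 2 (adjusted p = 0.0429), in the fit that called 6.02% of all genes lower. With the GC correction SREBF2 was at -0.17 (adjusted p = 0.266 in edgeR) and CYP51A1 at -1.12 (adjusted p = 0.190 in edgeR). The part of SREBF2 in the CYP51A1 values was not tested.

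CYP11A1, at chr15:74337759-74367740 on the minus strand, had 146, 150 and 208 counts in C4-2B compared with 254, 217 and 164 in RC4-2B. The RC4-2B range enclosed C4-2B replicate 3, and the log2 fold change was 0.38 ± 0.23 (SE, 95% interval -0.13 to 0.90, adjusted p = 0.334 in edgeR). It was 0.19 without RC4-2B replicate 1 and 0.66 with the GC correction (adjusted p = 0.102 in edgeR). CYP17A1, the enzyme of androgen synthesis that abiraterone inhibits, had 0 counts in all 6 libraries. CYP11B1, CYP11B2, CYP21A2 and CYP7B1 were also at 0 in every library, and CYP19A1, the aromatase, had at most 3 counts. CYP39A1, a bile acid pathway enzyme, had 49, 52 and 47 counts in C4-2B against 36, 58 and 51 in RC4-2B. Of the 13 genes of this class 4 were tested, and 1, CYP51A1, had cell lines that did not overlap in CPM, beside 17.1% of all tested genes that were lower without overlap. Of the 24 tested genes, 2 were lower in this way and 0 were higher, against 17.0% of all tested genes that were higher.

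Vitamin D metabolism held the gene with the smallest p-value of the family. CYP27B1, which makes the active hormone calcitriol, lies at chr12:57762334-57768986 on the minus strand and had 188, 190 and 185 counts in C4-2B compared with 137, 79 and 120 in RC4-2B. The C4-2B libraries were nearly level, and all RC4-2B libraries lay below them. The mean was 10.8 ± 0.35 CPM in C4-2B against 6.71 ± 2.05 CPM in RC4-2B, and the log2 fold change was -0.69 ± 0.23 (SE, 95% interval -1.23 to -0.16), with an unadjusted p of 0.0167 and an adjusted p of 0.158 in edgeR. DESeq2 gave an adjusted p of 0.0826. Over 19 alternative fits its log2 fold change stayed between -0.90 and -0.47 and its adjusted p between 0.0609 and 0.455, so it passed in none.

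CYP2R1, an enzyme of the first activation step of vitamin D in liver, had 354, 321 and 332 counts in C4-2B against 299, 401 and 288 in RC4-2B. Its log2 fold change was 0.01 ± 0.16 (SE, 95% interval -0.35 to 0.37), and -0.12 without RC4-2B replicate 2. CYP24A1, which degrades vitamin D and is a classical target of the vitamin D receptor, had 0 counts in all libraries, while the receptor gene VDR was present at 41.9 ± 1.78 CPM in C4-2B against 42.6 ± 2.92 CPM in RC4-2B. CYP26B1, which degrades retinoic acid, had 2, 4 and 6 counts in C4-2B compared with 8, 12 and 10 in RC4-2B, without overlap. It was chosen after its values were seen, had an exact permutation p of 0.1, the smallest possible, and an adjusted p of 0.287 in edgeR without the count filter. CYP26A1 had 0 counts in every library.

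Fatty acid hydroxylases overlapped between the cell lines in all 4 genes that could be tested. CYP4V2 had 558, 635 and 585 counts in C4-2B against 556, 784 and 471 in RC4-2B, with a log2 fold change of 0.06 ± 0.18 (SE), and -0.13 without RC4-2B replicate 2. CYP2U1 had 258, 305 and 281 counts in C4-2B compared with 235, 320 and 249 in RC4-2B. CYP2J2, which makes epoxides of arachidonic acid, had 94, 64 and 67 counts in C4-2B against 72, 116 and 76 in RC4-2B, with a log2 fold change of 0.26 ± 0.26 (SE, adjusted p = 0.549 in edgeR), and 0.05 without RC4-2B replicate 2. All 4 tested genes of this class of 12, CYP4F11 included, had 95% intervals within a 2-fold change in either direction.

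CYP4F8, which hydroxylates prostaglandins in the seminal vesicle, was not tested in the filtered table and was chosen after its values were seen. It had 13, 8 and 11 counts in C4-2B compared with 2, 3 and 2 in RC4-2B, so the RC4-2B libraries were at or under 3 counts and the cell lines did not overlap. The mean of 0.618 ± 0.161 CPM in C4-2B was 3.47 times the level of 3 counts per library, a ratio that leaves out sampling error. The log2 fold change in edgeR without the count filter was -2.10 ± 0.70 (SE, adjusted p = 0.0758). The exact permutation p was 0.1, the smallest possible. Without RC4-2B replicate 2 CYP4F8 passed the count filter, only through C4-2B, where it is high, so the call in that fit (adjusted p = 0.0441 in edgeR, with 6.02% of all genes called lower) carries no weight.

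CYP2S1, a CYP without a settled main substrate, had 19, 31 and 52 counts in C4-2B against 17, 9 and 22 in RC4-2B. RC4-2B replicate 3 lay above C4-2B replicate 1 in both counts and CPM, and the log2 fold change was -1.03 ± 0.46 (SE, 95% interval -2.08 to 0.02, adjusted p = 0.239 in edgeR). It was -0.60 without C4-2B replicate 3, -0.73 without RC4-2B replicate 2 and -0.77 with the GC correction. CYP20A1 had 253, 232 and 269 counts in C4-2B compared with 216, 219 and 250 in RC4-2B, with a log2 fold change of -0.10 ± 0.15 (SE).

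Genes that serve these enzymes were read from lists of 41 genes: electron donors, UDP-glucuronate supply and glucuronide cleavage, heme synthesis, and transcription regulators. Of 33 tested, 0 were higher and 1 was lower in RC4-2B in edgeR, in the fit that called 1.98% of all genes. The gene that fell was CYB5A, which encodes cytochrome b5, an electron donor that also raises the lyase activity of CYP17A1. CYB5A had 3275, 3194 and 3202 counts in C4-2B against 1935, 1479 and 1885 in RC4-2B, so the cell lines did not overlap. The mean was 186 ± 8.02 CPM in C4-2B against 105 ± 18.9 CPM in RC4-2B, and the log2 fold change was -0.82 ± 0.14 (SE, adjusted p = 0.0290 in edgeR). The call was lost without C4-2B replicate 1, 2 or 3 (adjusted p = 0.181, 0.140 and 0.137) or without RC4-2B replicate 3 (adjusted p = 0.101). Over 19 alternatives the log2 fold change of CYB5A stayed between -1.02 and -0.68, and it was called in 12.

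**Figure D5:**
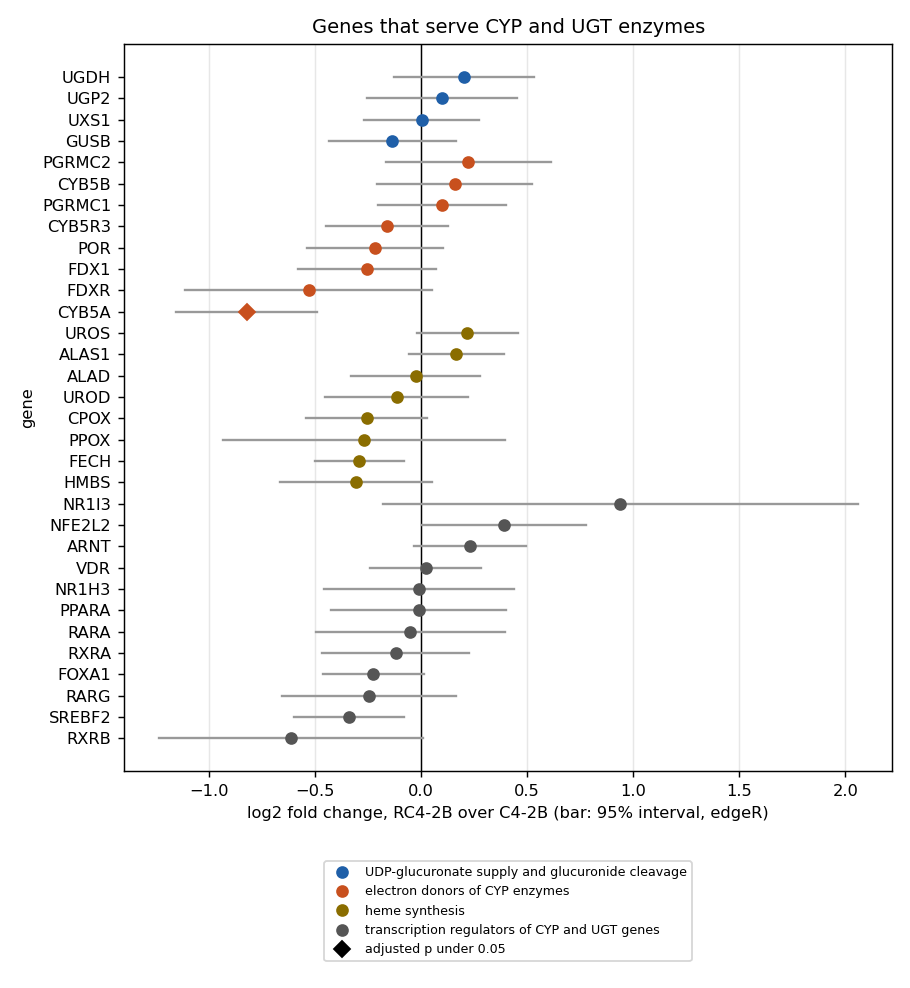
Log2 fold change of RC4-2B over C4-2B from edgeR, with 95% intervals as bars, for 32 of the 33 tested genes that serve CYP and UGT enzymes, coloured by list. CYB5A (diamond) at -0.82 is the gene with an adjusted p under 0.05.

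The other electron donors did not pass. POR, the reductase of microsomal CYP enzymes, had 2166, 2094 and 2197 counts in C4-2B compared with 1883, 1513 and 1991 in RC4-2B, with a log2 fold change of -0.22 ± 0.14 (SE, adjusted p = 0.372 in edgeR), and 0.02 with the GC correction. FDXR, which supplies mitochondrial CYP enzymes such as CYP11A1 and CYP27B1, had a log2 fold change of -0.53 ± 0.25 (SE, adjusted p = 0.261 in edgeR), and -0.26 without RC4-2B replicate 2 (adjusted p = 0.0952). Of the 8 electron donors tested, 3 were fitted above 0 and 5 below.

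For glucuronidation, UGDH, which makes UDP-glucuronate, had a log2 fold change of 0.20 ± 0.14 (SE, adjusted p = 0.408 in edgeR) and 0.04 without RC4-2B replicate 2, and none of the 4 tested genes of this list passed. None of the 8 genes of heme synthesis passed either, with log2 fold changes of -0.31 to 0.22. Among 19 transcription regulators 13 were tested and none passed. The xenobiotic receptor NR1I2 was at 0 counts in all libraries. Its relative NR1I3 had 6, 8 and 14 counts in C4-2B against 26, 11 and 15 in RC4-2B (log2 fold change 0.94 ± 0.49 SE, adjusted p = 0.289 in edgeR). AHR, the receptor that induces CYP1A1 and CYP1B1, had 8, 12 and 18 counts in C4-2B compared with 5, 6 and 1 in RC4-2B and was not tested.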

How the data were processed

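RNAseq of 3 C4-2B and 3 RC4-2B libraries was analysed, grouped by the sample titles. Per the submitters' processing notes, STAR and GRCh38 were used by the authors, who deposited whole-number counts per gene without normalization. They also deposited FPKM values, which are those counts divided by gene length and a library total. The counting program, its annotation, and its treatment of strand and of reads with several matches are not given in the sources used here. The test was that of edgeR 4.0.16 (R 4.3.3): TMM scaling, filterByExpr with a minimum of 10 counts (15054 genes), cell line as the only term, glmQLFit and glmQLFTest, not robust, with p-values adjusted by Benjamini-Hochberg (threshold 0.05). The study's methods name DESeq2, run here as an alternative (1.42.0) with cell line as the only term. CPM is TMM-scaled, SD is over 3 libraries, and intervals are 95%. Genes that the filter removed were described by counts, with exact two-sided permutation tests over 3 against 3 libraries. For CYP4F8, where no RC4-2B library exceeded 3 counts, the C4-2B mean was set against 3 counts per library.

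Genes given with all values were those past the threshold, the 10 tested genes with the smallest p-value, and those with a role in taxane oxidation, androgen glucuronidation or steroid synthesis. Others are named as examples of their class, or as chosen after their values were seen. Members and lists were chosen with earlier results of these data known. Alternatives were other scalings, filters and prior counts, leaving out single libraries, a block for the replicate number, an absolute log2 fold change over 1, a GC correction (lowess, span 0.2) and limma 3.58.1 on log2(FPKM + 1) and log2(FPKM + 0.1). Data were also simulated for RC4-2B against C4-2B, with 14777 genes left after the count filter. Of the 190 genes changed 4-fold among these, edgeR recovered 185, with 11 false calls. Smaller changes and the GC-linked shift of RC4-2B replicate 2 were not simulated, so this does not give the recovery in the real libraries. No 2 libraries of a cell line agreed within sampling noise (chi-square per gene of 3.40 to 66.6). Some genes of the family and of the lists are counted but not reported here by name.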

Additional observations from a re-analysis of the deposited data

How the results depend on the processing

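No CYP or UGT gene was called higher in any of 20 alternatives, and 17 of these also called none lower. The exceptions were edgeR with no filter beyond 1 count in all (1 lower, CYP51A1), edgeR without RC4-2B replicate 2 (2 lower, CYP51A1 and CYP4F8, where 6.02% of all genes were lower) and DESeq2 without RC4-2B replicate 2, added after the data were seen (1 lower, CYP51A1, with 6.08% of all genes lower). CYP4F8 passed the count filter only through C4-2B, where it is high. Leaving out each library in turn thus gave 0 to 2 lower genes. CYP2R1, fitted at 0.01, turned to -0.00055 in DESeq2, -0.0018 with RLE scaling, -0.00066 with the replicate block, -0.16 with the GC correction (alone or with the block), -0.13 in DESeq2 without RC4-2B replicate 2 and -0.12 to 0.098 without single libraries. CYP4V2, fitted at 0.06, turned to -0.079 with the GC correction, -0.091 with the block added and -0.14 in DESeq2 without RC4-2B replicate 2, and ran from -0.13 to 0.22 without single libraries. POR turned to 0.021 with the GC correction, alone or with the block. No other gene whose alternatives were computed changed direction. Among the genes that serve these enzymes, where edgeR called 1 lower, 3 were lower without RC4-2B replicate 2 in edgeR and in DESeq2 (CYB5A, FECH and SREBF2, in the fits with 6.02% and 6.08% of all genes lower), 2 with the GC correction alone or with the replicate block (CYB5A and FECH, with 490 and 562 of all genes lower), and 0 in the 3 limma fits on FPKM. Leaving out single libraries gave 0 to 3. The cause was not tested.

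Over all genes, where edgeR called 162 higher and 136 lower, DESeq2 called 500 and 402, no filter 604 and 646, the GC correction 658 and 490, and single left-out libraries gave 13 to 1000 higher and 31 to 925 lower. The sample titles name no pairing between replicate numbers. Deviations of same-numbered libraries correlated at 0.39, 0.22 and -0.09, which with 3 libraries per cell line cannot settle whether they were paired. With the replicate number as a block, 55 genes were higher and 74 lower, and 0 CYP or UGT genes passed. Not every library correlated best with its own number. The median log2 fold change of the CYP and UGT genes moved from 0.10 to 0.27 in DESeq2, which fits 57 of them, more than the 24 that passed the filter. Depth leaves levels under 3 counts undetected.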

Other observations

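UGT8, a galactosyltransferase that carries the UGT name but falls outside the naming rule, had 578, 577 and 670 counts in C4-2B against 658, 1213 and 777 in RC4-2B, with a log2 fold change of 0.57 ± 0.20 (SE, adjusted p = 0.167 in edgeR), and 0.31 without RC4-2B replicate 2 (adjusted p = 0.0634). Without the count filter it was 0.56 (adjusted p = 0.0487 in edgeR), in a fit that called 604 of 29109 genes higher. With the GC correction it was 0.35 (adjusted p = 0.0972 in edgeR). Its highest library was RC4-2B replicate 2, which was also the highest for UGT2B15 and UGT2B17.

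In C4-2B replicate 3, 5 of 23 tested CYP and UGT genes exceeded the mean of C4-2B replicates 1 and 2 by more than 2-fold (UGT2B11, UGT2B28, UGT2B15, UGT2B17 and CYP2S1), beside 122 of 15054 tested genes (0.810%). UGT2B10, at 0 and 2 counts in C4-2B replicates 1 and 2, was given no ratio. The UGT2B genes among these lie in 1 cluster and share sequence, and the pattern was noticed after the data were seen.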
